A study of Sus scrofa with 10 samples.

Results

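The genes described here encode the proteins of the cytosolic ribosome, set beside RPL3L, the muscle copy of RPL3. Members were chosen by symbol, as every measured gene named RPL or RPS with a number, the stalk genes RPLP0, RPLP1 and RPLP2, and RPSA, without the RPS6K kinases. The rule fitted 57 symbols of the pig gene table, and 56 of them are among the 12378 measured genes that have a symbol. RPL10L is the one that was not measured. A further 26 symbols of this family occur in the RefSeq gene table of the build but could not be matched to a row, and are not analysed here. Expression was measured in right ventricular tissue of 10 pigs. Libraries s1, s3, s4, s5 and s9 come from 5 pigs with CTEPH, chronic thromboembolic pulmonary hypertension, a state where old clots narrow the arteries of the lung and the right ventricle pumps against high pressure. Libraries s2, s6, s7, s8 and s10 come from 5 Sham pigs. The titles name a CTEPH or Sham pig for each library without an animal identifier, so 1 library per pig is assumed. The labels give no strain, age, sex, batch or time after the procedure. How CTEPH was produced is not stated in the sources used here.

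The cytosolic ribosome is built from a small subunit, which reads the mRNA, and a large subunit, which joins amino acids, each made of ribosomal RNA and many small basic proteins. Most of these proteins have 1 broadly expressed gene, and their mRNAs are produced and translated in a coordinated way under mTOR and MYC. RPL3 lies close to the catalytic centre of the large subunit. In adult heart and skeletal muscle the paralog RPL3L takes its place in part of the ribosomes, and in muscle the proportion of both is known to shift with growth and injury.

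RPL3L fell in the CTEPH ventricles, and it was the only gene of the 56 that passed the test. Its log2 values were 13.44 in s1, 12.48 in s3, 13.02 in s4, 12.57 in s5 and 13.28 in s9 of the CTEPH group. In the Sham group they were 13.68 in s2, 14.07 in s6, 13.90 in s7, 13.64 in s8 and 13.92 in s10. Every CTEPH library lay below every Sham library, with s3 and s5 lowest and s1 nearest to Sham. The group values were 12.96 ± 0.42 (CTEPH) and 13.84 ± 0.18 (Sham; SD, n = 5 per group). The log2 fold change, always given as CTEPH minus Sham, was -0.88 ± 0.19 (SE; adjusted p = 0.0188, from limma with Benjamini-Hochberg, BH, adjustment over all genes), with a 95% interval of -1.29 to -0.48. That puts the CTEPH level at 0.542 of the Sham level. Of all genes tested, 4.62% passed an adjusted p of 0.05 in either direction and 1.79% passed as lower in CTEPH. The call rests on a small margin: the fold change was -0.83 without Sham library s6 (adjusted p = 0.0526) and -0.87 without Sham library s10 (BH-adjusted p = 0.0503 in limma). The other 8 refits that each left out 1 library kept it.

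RPL3 lay in the opposite direction. Its log2 values were 13.96 in s1, 13.66 in s3, 13.59 in s4, 13.69 in s5 and 13.97 in s9 of the CTEPH group, against 12.82 in s2, 13.50 in s6, 13.37 in s7, 13.86 in s8 and 13.01 in s10 of the Sham group. Sham library s8 lay inside the CTEPH range and the other 4 Sham libraries lay below it. The difference was 0.46 ± 0.19 (SE), a 1.38-fold higher mean in CTEPH. It did not pass (BH-adjusted p = 0.18 in limma), and its 95% interval before adjustment was 0.06 to 0.86. It was the most positive fold change of the 56 members, as that of RPL3L was the most negative.

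**Figure D1:**
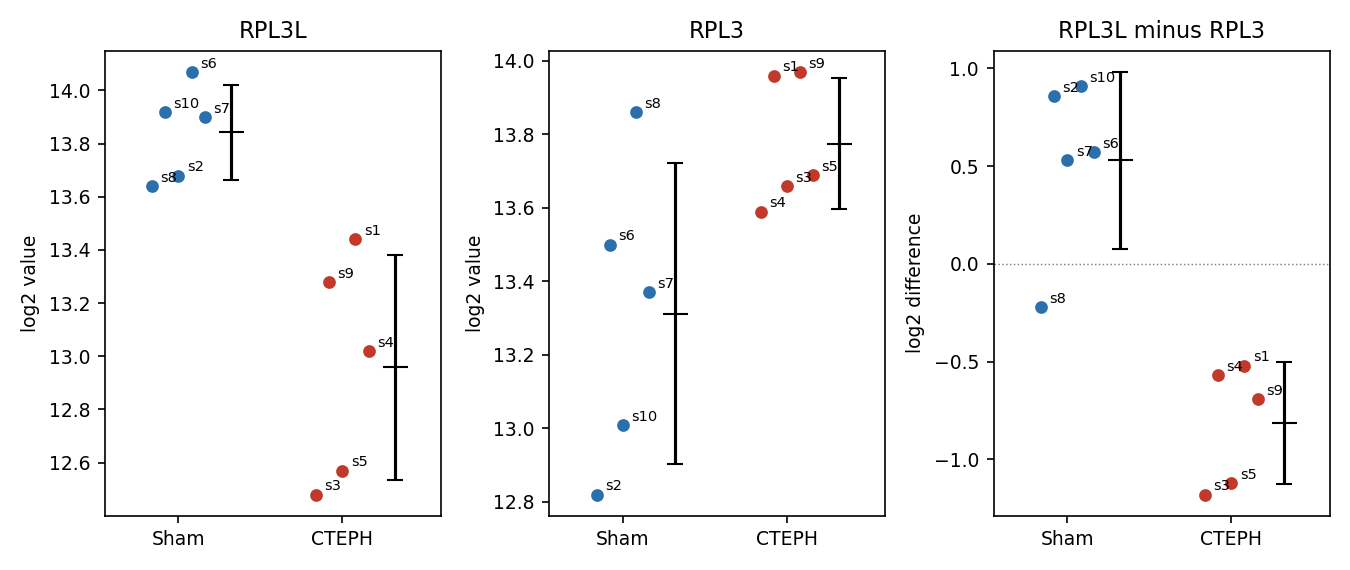
Deposited log2 values of RPL3L and RPL3, and their difference within each library, by group, with the mean ± SD of 5 libraries as bars and a y axis of its own in each panel. The 5 CTEPH libraries lie below every Sham library for RPL3L and for the difference, while Sham library s8 falls inside the CTEPH range for RPL3.

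The balance between both paralogs was compared within each library, where any scaling of the whole library cancels. RPL3L minus RPL3 was -0.52 in s1, -1.18 in s3, -0.57 in s4, -1.12 in s5 and -0.69 in s9. In Sham it was 0.86 in s2, 0.57 in s6, 0.53 in s7, -0.22 in s8 and 0.91 in s10. All CTEPH libraries were lower than all Sham libraries, and s8 was the Sham library nearest to CTEPH. The group values were -0.82 ± 0.31 (CTEPH) and 0.53 ± 0.45 (Sham; SD, n = 5 per group), a log2 difference of -1.35 ± 0.25 (SE). The ratio of RPL3L to RPL3 was thus 2.54-fold lower in CTEPH (two-sided exact permutation p = 0.00794, the smallest possible for 5 against 5 libraries). Adjusted over the 5 within-library differences that were tested, p = 0.0198 (exact permutation, Benjamini-Hochberg). The values are not divided by transcript length, so the sign of a difference does not say which paralog was more abundant in a library.

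Both members of this ratio were also set against the rest of the ribosome. RPL3L minus the median of the other members was -1.20 ± 0.18 (CTEPH) and -0.45 ± 0.18 (Sham; SD, n = 5 per group), a difference of -0.75 ± 0.11 (SE; exact permutation p = 0.00794, adjusted over the 5 differences p = 0.0198). RPL3 minus the same median was -0.38 ± 0.19 (CTEPH) and -0.98 ± 0.27 (Sham; SD, n = 5 per group), a difference of 0.59 ± 0.15 (SE; exact permutation p = 0.0159, adjusted p = 0.0265). The groups overlapped for RPL3, with CTEPH library s9 at -0.60 and Sham library s8 at -0.53. The RPL3 difference was added after its values were seen. In the limma fit on values relative to the member median, RPL3L passed at -0.75 (adjusted p = 0.0316) and RPL3, at 0.60, did not (adjusted p = 0.141, Benjamini-Hochberg).

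RPL3L lies on chromosome 3 of Sscrofa11.1 from 40004907 to 40016702, and RPL3 on chromosome 5 from 8922697 to 8929768. In the RefSeq gene table RPL3L overlaps the end of NDUFB10, a complex I subunit gene that spans 40003109 to 40005650, and RPS2 ends next to it at 40003110. Reads from the overlap could be counted for either gene or for none, since the strand setting of the counting is not stated in the sources used here. NDUFB10 was at 13.06 ± 0.32 (CTEPH) and 13.25 ± 0.16 (Sham; SD, n = 5 per group), a log2 fold change of -0.18 (BH-adjusted p = 0.563 in limma). RPS2 was at -0.26 (adjusted p = 0.426) and MSRB1, the next gene on the other side, at -0.08 (adjusted p = 0.879). NDUFB10 and MSRB1 were named for their position, after values were seen.

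The cell types that carry RPL3L were checked by their markers, whose calls stand beside the 4.62% of all genes that passed. The level of 12 measured cardiomyocyte markers, as the mean deviation from each gene's mean, lay between -0.07 and 0.11 over the CTEPH and between -0.07 and 0.09 over the Sham libraries. Of these markers 1 rose and 0 fell, the ventricular light chain MYL2 (0.99 ± 0.21, SE; BH-adjusted p = 0.0173 in limma, and 0.0509 without CTEPH library s4), and the cardiac troponin gene TNNI3 was at -0.34 (adjusted p = 0.523). The even level is a mean over markers that lay on both sides, 5 positive and 7 negative. It also includes TNNI1, whose values were low and uneven, from 5.25 in s6 to 9.81 in s8 within Sham (SD 1.63, n = 5). A single gene with that spread can shift the mean of 12, and the level without TNNI1 was not computed. MYL2 and the slow troponin gene TNNI1 (1.01, adjusted p = 0.456) stood against the muscle creatine kinase gene CKM at -0.62, the myosin-binding protein gene MYBPC3 at -0.54 and the sarcomere gene TCAP at -0.50 (BH-adjusted p = 0.118, 0.214 and 0.198 in limma). Relative to the mean of these markers, which rests on differences of both signs and includes TNNI1, RPL3L was at -0.88 ± 0.18 (SE; BH-adjusted p = 0.0161 in limma). For 5 measured of 12 skeletal muscle markers the level was -0.19 to 1.15 in CTEPH and -0.75 to -0.08 in Sham, and for 5 of 7 atrial markers -0.22 to 0.85 and -1.16 to 0.65. Markers of dividing cells set the groups apart: all 10 measured of 12 genes rose, with levels of 0.72 to 2.04 in CTEPH and -1.60 to -1.42 in Sham. The macrophage level (10 of 10 markers) was 0.01 to 0.72 in CTEPH and -0.60 to 0.16 in Sham, the endothelial level (9 of 10) -0.52 to -0.03 and -0.16 to 0.65, and the fibroblast level (10 of 10) -0.36 to 0.57 and -0.41 to 0.13. The smooth muscle and pericyte level (9 of 9) was -0.62 to 0.48 and -0.21 to 0.20.

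Single markers of the other lists passed as well, where 4.62% of all genes did, and they are named here after their values were seen. CKMT2, the mitochondrial creatine kinase of striated muscle, heart included, was the 1 called skeletal muscle marker (0.66 ± 0.16, SE; BH-adjusted p = 0.0336 in limma), and it lost its call without s2, s3, s4, s5, s6, s8 or s10. In that list CKMT2 (15.84 in CTEPH, 15.18 in Sham) and ACTA1 (19.33 and 18.14) were high. TNNC2 (4.78 and 3.78), MYH1 (4.59 and 4.11) and MYH4 (4.16 and 3.77) were low. The call of CKMT2 thus does not set skeletal muscle apart from heart muscle. The potassium channel gene KCNA5 was the 1 called atrial marker (0.77 ± 0.20, SE; BH-adjusted p = 0.0477 in limma), and kept its call only without s5 or s8. Of the 5 measured atrial markers 3 were positive and 2 negative. The negative ones were TBX5 at -0.53 and NR2F2 at -0.45 (BH-adjusted p = 0.0807 and 0.239 in limma). The contractile protein gene CNN1 was the 1 called smooth muscle marker (1.98 ± 0.47, SE; BH-adjusted p = 0.0294 in limma), and lost its call without s2, s3, s5, s6, s8 or s10. The smooth muscle and pericyte list lay on both sides, with 4 markers positive, 5 negative and a median fold change of -0.23. Among the negative ones were PDGFRB at -0.54, RGS5 at -0.61 and SMTN at -0.40 (BH-adjusted p = 0.134, 0.209 and 0.158 in limma). Of the macrophage markers 2 rose, the scavenger receptor gene MSR1 (1.62 ± 0.23, SE; BH-adjusted p = 0.00164 in limma), which kept its call in all 10 refits, and the lysozyme gene LYZ (2.38 ± 0.55, SE; adjusted p = 0.0279), which lost it without s2, s3, s4, s5 or s7. The angiopoietin receptor gene TEK was the 1 endothelial marker that fell (-0.78 ± 0.17, SE; BH-adjusted p = 0.0205 in limma), and it lost its call without s3, s4, s6, s8 or s10. Of the fibroblast markers 0 passed by limma, and 3 reached an unadjusted p of 0.05, where 20.3% of all genes did. None of the measured markers was at 0 in any library, but low values occurred. On normalized log2 values the lack of a 0 does not show that a gene was detected in each library. The lowest was 2.01 among skeletal muscle, 3.75 among dividing cell, 3.98 among macrophage, 4.12 among atrial and 5.25 among cardiomyocyte markers. MSR1 and LYZ were among the lowest 25% of genes by mean and so had no result under that filter. The part of these other cells in the ribosomal protein values was not tested, and in bulk tissue fewer cells of a type cannot be told apart from less RNA per cell.

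The other 55 members did not pass. Of them 46 had a negative and 9 a positive fold change, with a median of -0.16 and a range of -0.40 to 0.46. Over all 56 members 83.9% of fold changes were negative, against 53.6% of all genes, whose median fold change was -0.03. At an unadjusted p under 0.05 there were 5 members, RPL3L and RPL3 among them, where 20.3% of all genes reached it. The share of members that passed either threshold was therefore not above that of all genes. The fold changes were small: 55 of 56 were under 0.5 on the log2 scale, and for 30 members the 95% interval excluded a 1.5-fold change in either direction. The groups did not overlap for 2 members, RPL3L and RPL7L1, where 6.57% of all genes did not.

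**Figure D2:**
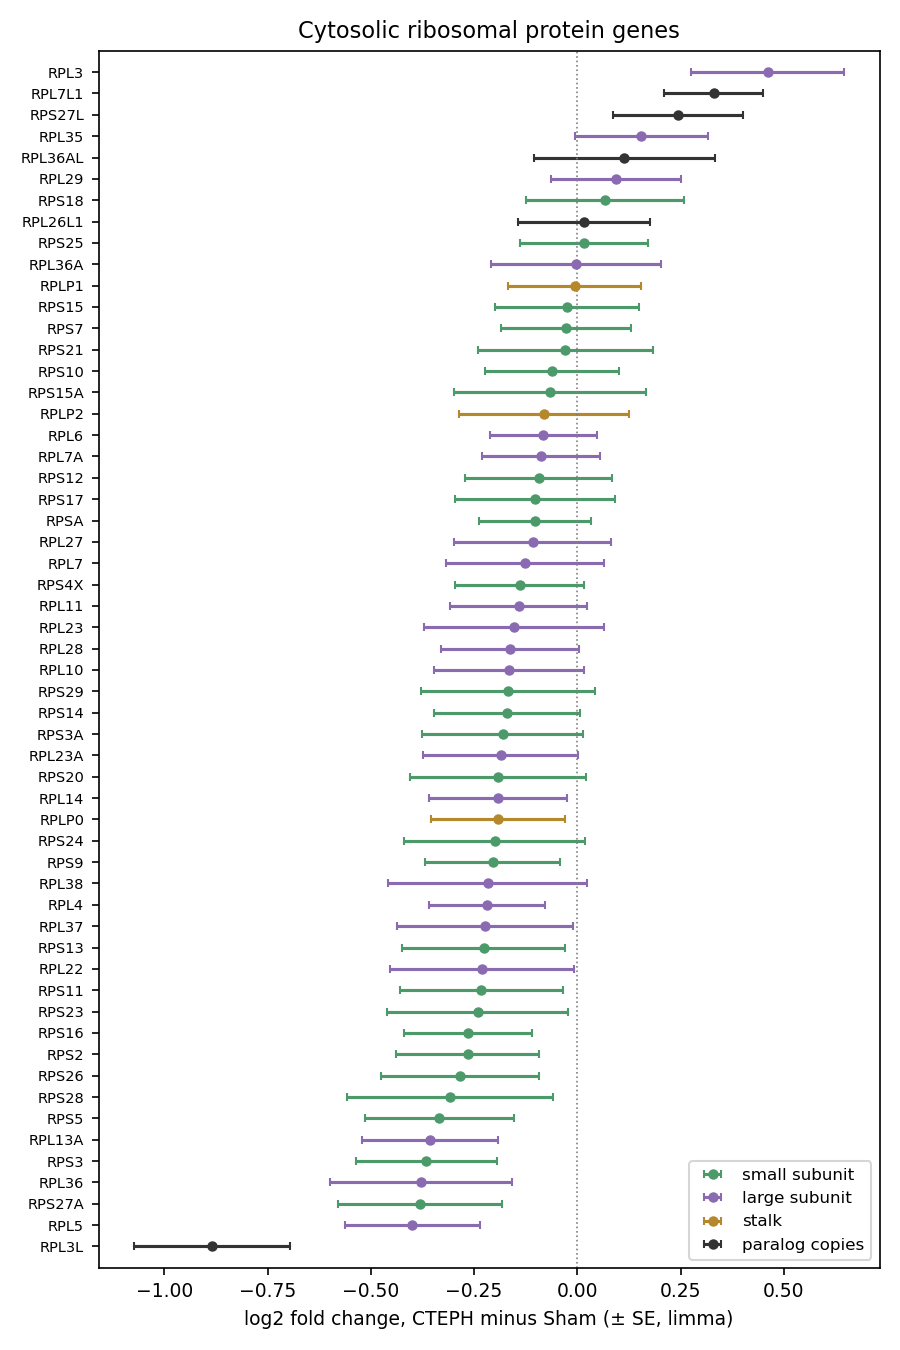
Log2 fold change (CTEPH minus Sham) with its limma SE for the 56 members, ordered from low to high and coloured by their place in the ribosome. RPL3L stands apart at -0.88, RPL3 is the highest at 0.46, and the remaining members lie between -0.40 and 0.33.

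The small subunit genes held together. Of 27 small subunit genes 0 passed by limma, 0 reached an unadjusted p of 0.05, 25 were negative and 2 positive, with a median of -0.18. RPS27A, which encodes a ribosomal protein fused to ubiquitin, was the lowest at -0.38 ± 0.20 (SE; adjusted p = 0.308). Its values were 14.76 in s1, 14.46 in s3, 14.67 in s4, 14.77 in s5 and 15.56 in s9 of CTEPH, and 14.94 in s2, 15.26 in s6, 15.29 in s7, 15.57 in s8 and 15.08 in s10 of Sham. The CTEPH libraries other than s9 thus lay below every Sham library, and s9 lay near the top of the Sham range. RPS3, at the mRNA entry of the small subunit, ranged from 15.14 to 15.89 in CTEPH and from 15.52 to 15.89 in Sham, with s1 and s9 inside the Sham range and a fold change of -0.37 ± 0.17 (SE; adjusted p = 0.251). RPSA, which also gives rise to the laminin receptor, was at -0.10 ± 0.14 and the X-linked RPS4X, whose protein helps bind mRNA to the small subunit, at -0.14 ± 0.16 (SE).

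Of 21 large subunit genes with the usual symbols, 0 passed by limma, 3 reached an unadjusted p of 0.05, 18 were negative and 3 positive, with a median of -0.16. RPL5, which with RPL11 carries a small ribosomal RNA into the large subunit and can bind the p53 regulator MDM2, was at 14.91 in s1, 14.70 in s3, 14.65 in s4, 14.77 in s5 and 15.39 in s9. Its Sham values were 15.17 in s2, 15.08 in s6, 15.41 in s7, 15.55 in s8 and 15.21 in s10. Here too s9 was the only CTEPH library within the Sham range, and the fold change was -0.40 ± 0.16 (SE; BH-adjusted p = 0.191 in limma). RPL11 was at -0.14 ± 0.17. RPL13A, which can leave the ribosome to silence inflammatory mRNAs, was at -0.36 ± 0.16 (adjusted p = 0.242) and RPL36 at -0.38 ± 0.22 (adjusted p = 0.366). At the other end RPL35, near the exit of the peptide tunnel, and RPL29 were at 0.16 ± 0.16 and 0.09 ± 0.16 (SE).

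The stalk recruits the translation factors to the ribosome. Its genes RPLP0, RPLP1 and RPLP2 were at -0.19 ± 0.16, -0.01 ± 0.16 and -0.08 ± 0.21 (SE), and 0 of the 3 passed by limma or reached an unadjusted p of 0.05.

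Apart from RPL3L, 4 paralog copies were measured, and their fold changes were positive. RPL7L1, related to RPL7 and known from assembly of the large subunit, had log2 values of 11.51 in s1, 11.47 in s3, 11.39 in s4, 11.26 in s5 and 11.39 in s9 of CTEPH. In Sham it was at 11.06 in s2, 11.10 in s6, 11.20 in s7, 11.19 in s8 and 10.81 in s10, so that all CTEPH libraries lay above all Sham libraries by a narrow gap. The difference of 0.33 ± 0.12 (SE) did not pass (BH-adjusted p = 0.142 in limma). RPL7L1 minus RPL7 was -3.62 ± 0.44 (CTEPH) and -4.07 ± 0.22 (Sham; SD, n = 5 per group), with overlapping groups (exact permutation p = 0.0635, adjusted over the 5 differences p = 0.0794). RPS27L, a copy of RPS27 that p53 can induce, was at 0.24 ± 0.16 (SE; adjusted p = 0.42). RPL36AL, a near-identical copy of RPL36A, was at 0.11 ± 0.22 and RPL36A itself at 0.00 ± 0.21, and the difference between them was 0.93 ± 0.23 (CTEPH) and 0.82 ± 0.11 (Sham; SD, n = 5 per group; exact permutation p = 0.349, adjusted p = 0.349). RPL26L1 was at 0.02 ± 0.16 (SE). Reads shared between such copies, or with processed copies elsewhere in the genome, may have been split or dropped, so the values of RPL36A, RPL36AL and RPL26L1 are uncertain.

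The members varied together from pig to pig far more than between the groups. CTEPH library s9 held the highest value of all 10 libraries for 38 of the 56 members, and CTEPH library s3 held the lowest for 36. The median over members was 13.72 in s3, 13.92 in s5, 14.07 in s4, 14.37 in s1 and 14.55 in s9 of CTEPH, and 13.97 in s2, 14.15 in s10, 14.32 in s7, 14.35 in s8 and 14.50 in s6 of Sham. The CTEPH group thus spanned 0.83 on the log2 scale and enclosed the whole Sham range. Within CTEPH, s1 or s9 was highest for 55 members and s3 or s5 lowest for 51. Within Sham, s2 or s10 was lowest for 51. The SD was larger in CTEPH than in Sham for 53 of 56 members, where this held for 69.6% of all genes.

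**Figure D3:**
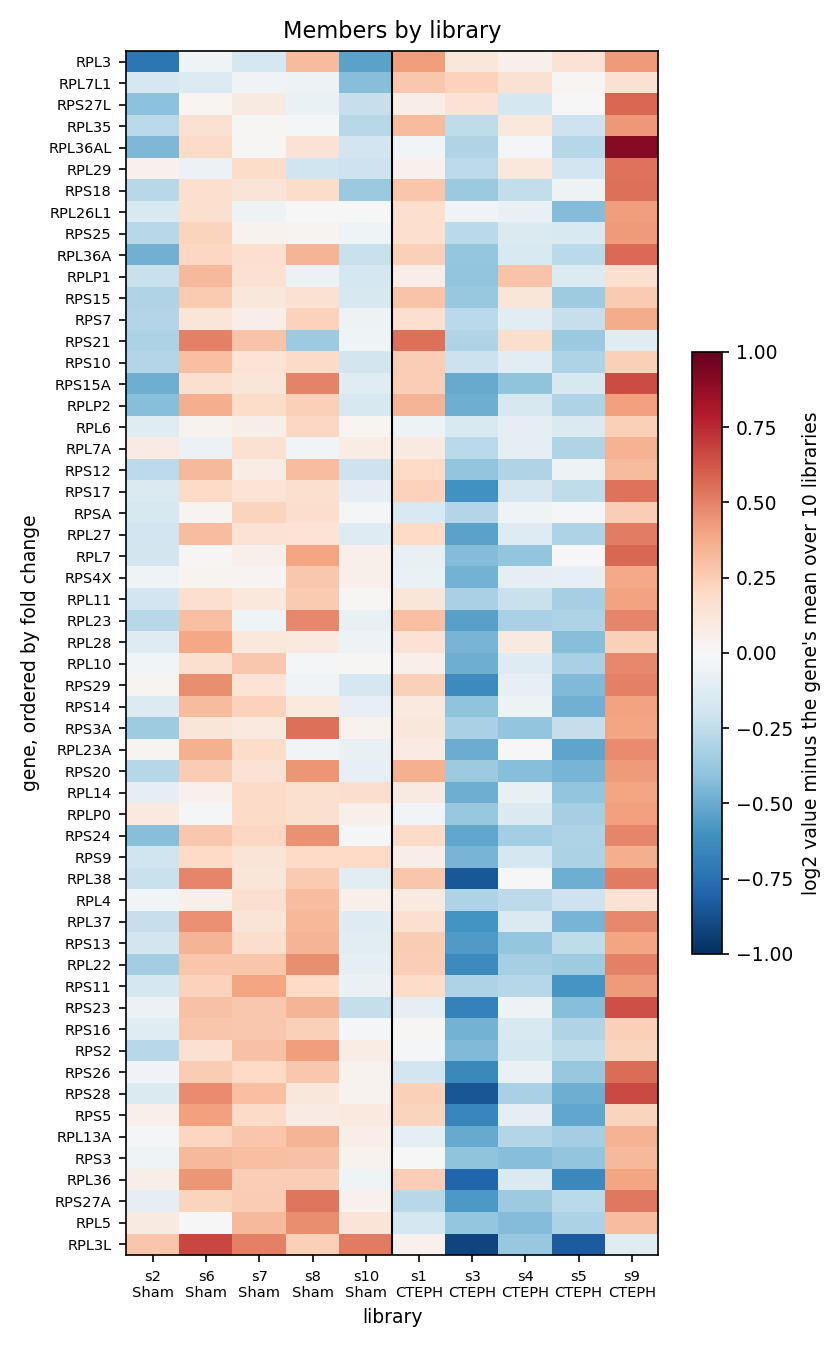
Log2 value of each of the 56 members minus its mean over the 10 libraries, with Sham libraries left of the line, CTEPH libraries right of it, and genes in the order of their fold change. Most of the s3 column is blue and most of the s9 column is red. RPL3L at the bottom separates the groups, while RPL3 at the top overlaps between them at s8.

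The spread shrank when each library's member median was subtracted. The median within-group SD of the members fell from 0.298 to 0.164 on the log2 scale, and it was smaller for 53 of the 56 members. The exceptions, chosen by their values, were RPL6, RPL7L1 and RPSA, with SDs of 0.141, 0.131 and 0.178 before and 0.185, 0.27 and 0.195 after. Relative to the member median 24 members were positive and 32 negative. RPL3 (0.60) and RPL3L (-0.75) remained the extremes, followed by RPL7L1 (0.46) and RPS27L (0.38) on the high side and RPL5 (-0.27) and RPS27A (-0.25) on the low side.

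How large the common difference was depended on single CTEPH libraries, and most on s9. Without it the median fold change of the members was -0.29, 52 of 56 were negative, and 15 reached an unadjusted p of 0.05, where 21.4% of all genes did. RPL5 (-0.53, adjusted p = 0.0418) and RPS27A (-0.56, BH-adjusted p = 0.0479 in limma) then passed as lower beside RPL3L. More genes passed over the whole table as well, 961 without s9 against 723 with all libraries. RPL5 and RPS27A were called in no other setting run. The refit without s9 is singled out here after its member values were seen to be the highest, so these 2 calls do not show a decrease of the family. Without CTEPH library s3, at the other extreme, the median was -0.06 and 38 members were negative. A common shift of the 56 genes between the groups was thus smaller than the differences among the CTEPH pigs.

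Genes of other small proteins followed a like order over the libraries. The level of 42 measured nuclear genes of small oxidative phosphorylation subunits was highest in s9, at 0.45, and low in s3 (-0.26), s5 (-0.18) and s2 (-0.29). The cytosolic ribosomal protein level was 0.40 in s9, -0.42 in s3, -0.30 in s5 and -0.18 in s2. Of the oxidative phosphorylation genes 0 passed by limma and 2 reached an unadjusted p of 0.05, with a median fold change of 0.05. Over all genes 4.62% passed and 20.3% reached that unadjusted p. The 12 measured mitochondrially encoded genes were at 0.19 in s9, -0.34 in s3, -0.62 in s5 and 0.81 in s2. Among these ATP8 spread the widest in Sham, at 12.8 ± 3.12 (SD, n = 5), so this mean can rest on few genes. ATP6 and COX3 had a Sham SD of 0. Quantile normalization gives genes of equal rank 1 shared value, so this SD does not measure how much they varied. RNA integrity is not stated in the sources used here, and the part of RNA quality in the shared movement was not tested.

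**Figure D4:**
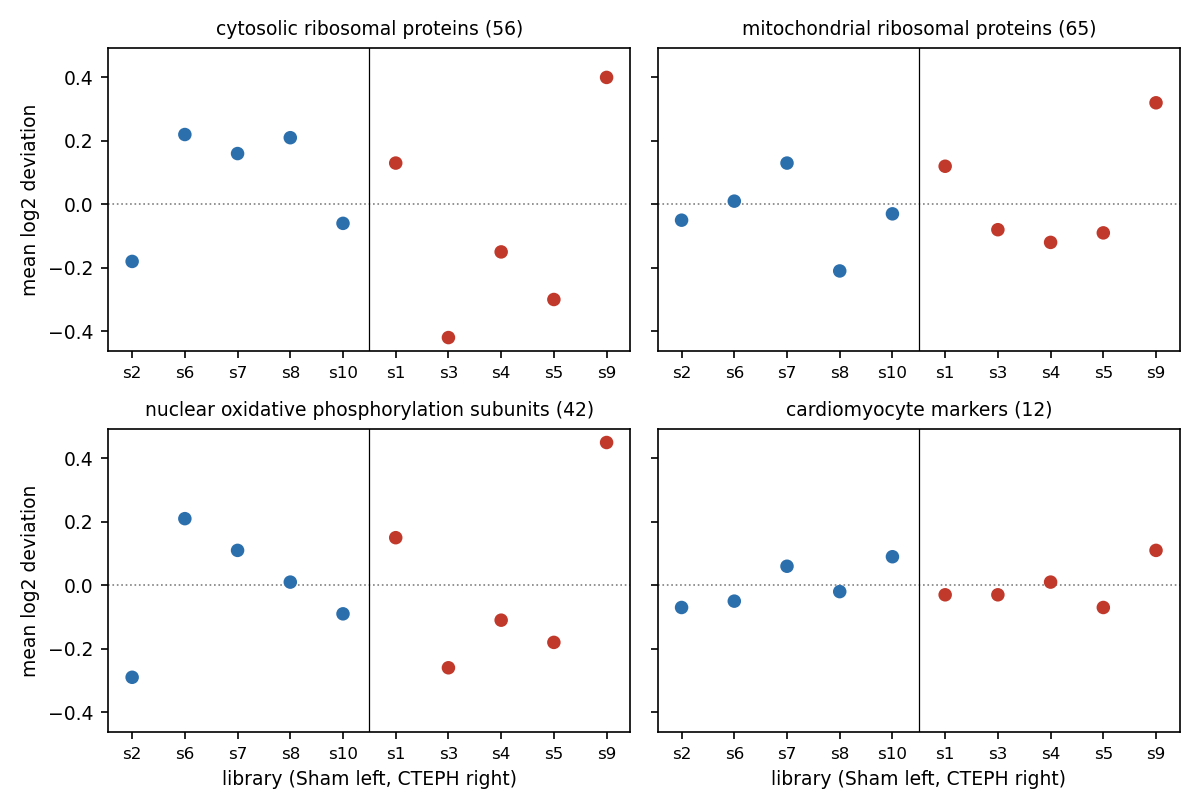
Mean deviation of a list's log2 values from each gene's mean, by library, for cytosolic ribosomal proteins, mitochondrial ribosomal proteins, small nuclear oxidative phosphorylation subunits and cardiomyocyte markers, with Sham in blue and CTEPH in red. Library s9 is the highest in all 4 lists, at 0.40, 0.32, 0.45 and 0.11, and s3 is the lowest for the cytosolic ribosomal proteins at -0.42.

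Mitochondria carry their own ribosomes, whose proteins are encoded in the nucleus. Of 65 measured genes of mitochondrial ribosomal proteins 0 passed by limma and 10 reached an unadjusted p of 0.05. Over all genes these shares were 4.62% and 20.3%. Their fold changes were positive for 45 and negative for 20, with a median of 0.06, while 47 of the 56 cytosolic members were negative. The level of the mitochondrial genes was 0.03 ± 0.19 (CTEPH) and -0.03 ± 0.12 (Sham; SD, n = 5 per group), and that of the cytosolic genes -0.07 ± 0.33 and 0.07 ± 0.18. The groups overlapped for both. The difference between both kinds of ribosome was not tested.

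Ribosomal proteins whose genes have other symbols gave similar values. FAU, a small subunit protein fused to a ubiquitin-like domain, was at -0.17 ± 0.19 and the small subunit scaffold RACK1 at -0.17 ± 0.13 (SE). Neither passed (BH-adjusted p = 0.657 and 0.51 in limma).

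The translation machinery around the ribosome was read against the 4.62% of all genes that passed and the 20.3% that reached an unadjusted p of 0.05. Among 33 initiation factor genes 2 rose and 0 fell, 7 reached an unadjusted p of 0.05 and the median was -0.10. EIF4E, which binds the mRNA cap, had values of 11.86 in s1, 11.50 in s3, 11.60 in s4, 11.94 in s5 and 11.78 in s9 of CTEPH and 11.07 in s2, 10.67 in s6, 11.32 in s7, 10.96 in s8 and 11.09 in s10 of Sham. All CTEPH libraries exceeded all Sham libraries, by 0.72 ± 0.15 in the fit (SE; BH-adjusted p = 0.0151 in limma), and the call held in all 10 refits without 1 library. EIF3I, a subunit of the scaffold factor of initiation, rose by 0.45 ± 0.12 (adjusted p = 0.0455), but lost its call in all 10 of these refits (adjusted p of 0.0523 to 0.104). Among 11 elongation factor genes 0 passed by limma and 2 reached an unadjusted p of 0.05. The muscle and nerve form EEF1A2 was at -0.05 ± 0.19 and the translocation factor EEF2 at -0.36 ± 0.17 (SE; BH-adjusted p = 0.918 and 0.263 in limma).

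The genes of ribosome assembly and its control were read against the same shares of all genes, 4.62% and 20.3%. Among 55 nucleolar and assembly genes 1 rose and 0 fell, 3 reached an unadjusted p of 0.05 and the median was 0.07. The gene that rose was NOP16, a nucleolar factor of the large subunit, at 10.29 ± 0.12 (CTEPH) and 9.65 ± 0.18 (Sham; SD, n = 5 per group; log2 fold change 0.63 ± 0.14, SE; BH-adjusted p = 0.0187 in limma). It lost its call without Sham library s10 (adjusted p = 0.052). Among 10 genes that carry or place ribosomal proteins 0 passed by limma and 1 reached an unadjusted p of 0.05, and GRWD1, the chaperone of RPL3, was at -0.09 ± 0.20 (SE).

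Among 25 genes that control ribosomal protein synthesis 0 rose and 1 fell, and 7 reached an unadjusted p of 0.05, with a median of -0.05. MXI1, which competes with MYC for its partner MAX, fell by 0.83 ± 0.19 (SE; BH-adjusted p = 0.0268 in limma) and lost its call in 6 of the 10 refits, those without s2, s3, s4, s5, s8 or s10, the highest adjusted p being 0.0703. MYC was at 0.53 ± 0.43, MTOR at 0.25 ± 0.19, the S6 kinase gene RPS6KB1 at -0.10 ± 0.15, and LARP1, which binds the mRNAs of ribosomal proteins, at -0.30 ± 0.16 (SE; adjusted p = 0.532, 0.495, 0.753 and 0.334). Of 8 genes of the p53 response to ribosome stress 1 rose and 0 fell, with 5 at an unadjusted p under 0.05. Over all genes these shares were 4.62% and 20.3%. The gene that rose, named after its values were seen, was the cell cycle inhibitor CDKN1A, at 1.99 ± 0.39 (SE; BH-adjusted p = 0.0124 in limma).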

How the data were processed

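RNA of the right ventricle of 10 pigs was sequenced, 5 CTEPH and 5 Sham. The values deposited by the authors are on a log2 scale and nearly share 1 distribution over the libraries, as quantile normalization leaves behind, so total counts and depth are unknown and a change common to most genes could not appear. Per the submitters' processing notes, the tools were edgeR 3.36.0, limma 3.50.0 and featureCounts with no version, with FastQC 0.11.5, cutadapt 1.15 and bcl2fastq 2.18.12, and the build was Sscrofa11.1. The labels name polyA RNA and a stranded kit for total RNA. The aligner and annotation are not stated in the sources used here.

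Symbols from a table of Ensembl identifiers matched 12378 of 15638 genes and left 3260 without one. Coordinates, counted from 1, were looked up by symbol in RefSeq's table for Sscrofa11.1. All genes were fitted with limma 3.58.1 in R 4.3.3 (intensity trend, two-sided, no covariate, Benjamini-Hochberg over all genes), tested on simulated data, and genes under an adjusted p of 0.05 are called. The 95% intervals are those of the fit, before adjustment. Differences between paralogs used two-sided exact permutation tests over libraries. The library titles give no animal identifier and no pairs, so separate and unpaired pigs are assumed. The alternatives were another variance model, library weights, a filter dropping the lowest 25% of genes, 3 other scalings and leaving out each library.

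Members and lists were chosen with earlier results of these data known. Named are RPL3L and RPL3, called members, the 6 largest changes each way, paralogs with partners, stalk genes and RPSA, members with the highest or lowest values or widest Sham spread, and set and called genes of the translation lists. No sequences are printed. A named gene outside the family is left out and not reported here.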

Additional observations from a re-analysis of the deposited data

Results flagged for a closer look

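In 7 of the 168 groups of 5 libraries examined, 1 library stood apart from the other 4, where chance alone gives about 1 in 20. CTEPH library s9 was the high one for 3 members: RPL36AL at 13.33 (next 12.41), RPL6 at 15.65 (next 15.36) and RPS27A at 15.56 (next 14.77). Sham library s2 was low for RPS9, at 13.90 with the next at 14.23. Outside the family, CTEPH library s1 was high for the chaperone gene GRWD1, at 10.32 (next 9.75), CTEPH library s3 for the macrophage marker LYZ, at 9.24 (next 7.69), and Sham library s7 for CDKN1A, at 11.20 (next 9.82).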

How the results depend on the processing

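No paired analysis was made, since the labels name no pairs of CTEPH and Sham pigs. RPL3L was lower and called under the other variance model, library weights, the filter and all 3 scalings, and lost its call in 2 of 10 refits without 1 library (-1.01 to -0.77). RPL3 stayed positive and uncalled (0.34 to 0.60 without 1 library). RPL3L minus RPL3 was -1.53 to -1.25 without 1 library, with an exact permutation p of 0.00794 to 0.0159. Members called higher were 0 in every setting run, and those called lower 0 to 3 without 1 library (median fold change -0.29 to -0.06).

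Genes near no change switched sign, and none of these was called. Relative to the ribosomal protein median, where the median of all genes shifted to 0.10, EEF1A2 was at 0.08, GRWD1 0.04, RPL36A 0.13, RPL7 0.01, RPLP1 0.13, RPLP2 0.05, RPS15A 0.07, RPS21 0.10, RPS6KB1 0.03 and RPSA 0.03. With library weights EEF1A2 was at 0.03 and RPL26L1 at -0.03. Relative to the highest 20% of genes RPL36A was at 0.01 and RPLP1 at 0.00, and relative to the cardiomyocyte markers, a scaling added after seeing the data, RPL36A was at 0.00. Without 1 library the ranges were -0.17 to 0.03 for EEF1A2, -0.09 to 0.13 for RPL26L1, -0.03 to 0.17 for RPL29, -0.14 to 0.09 for RPL36A, -0.10 to 0.20 for RPL36AL, -0.08 to 0.09 for RPLP1, -0.20 to 0.03 for RPLP2, -0.24 to 0.05 for RPS15A and -0.17 to 0.09 for RPS21.

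The number of genes called over the whole table was 723, and it was 1269 with library weights and 342 relative to the ribosomal protein median. EIF4E, NOP16, MXI1 and EIF3I lost their calls under that last scaling (BH-adjusted p = 0.0684, 0.0867, 0.208 and 0.21 in limma), as did the markers CKMT2, CNN1, KCNA5 and TEK (0.106, 0.0541, 0.105 and 0.178). With no intensity trend MXI1 (0.0502), EIF3I (0.0688), CKMT2 (0.0546), CNN1 (0.0595) and KCNA5 (0.079) lost theirs, KCNA5 also did under the filter (0.0517), and EIF3I relative to the cardiomyocyte markers (0.0513). The cause was not tested. Total depth is unknown, so counting error could not be set beside these values.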
